A study of Mus musculus with 8 samples.

Results

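Doc2 proteins and synaptotagmins are C2-domain proteins of the secretory pathway. The report covers 10 genes of this group, Doc2a, Doc2b, Syt1, Syt3, Syt4, Syt5, Syt7, Syt11, Syt12 and Syt13, taken by their symbol from a table of 46983 genes measured by RNA-Seq in mouse hippocampus. The study compared 4 libraries from XBP1s-TG with 4 from Control mice, C57BL/6 and 2 months old, 7 days after doxycycline (Dox) was removed. XBP1s-TG mice had the genotype TRE-XBP1s;Camk2a-tTA, in which the Camk2a promoter, active in forebrain excitatory neurons, drives the Dox-repressed activator tTA and tTA drives spliced Xbp1, a transcription factor of the unfolded protein response. The label of the other mice gives their genotype only as Control. The design implies 1 comparison, whether induction of Xbp1s changed expression of these genes. Libraries S1 to S4 were from XBP1s-TG and S5 to S8 from Control mice, with n = 4 in each group throughout.

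In this line seizures set in after Dox removal, from about the time at which the tissue was taken, and whether any sampled mouse had them was not analysed here. Whole hippocampus was measured, so fewer cells of a type and less RNA per cell cannot be told apart.

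Most C2 domains of this family bind calcium through aspartates in loops at the top of the domain, which then dip into a membrane rich in acidic lipids. Syt1 is the fast sensor of synchronous transmitter release at forebrain synapses. Doc2a and Doc2b bind calcium with high affinity and have been tied to spontaneous and asynchronous release, and Syt7 to asynchronous release, vesicle replenishment and facilitation. Syt3 is a high-affinity sensor known from AMPA receptor internalization, and Syt4 is found on dense core vesicles and postsynaptic organelles. Syt4 and Syt11 carry a substitution in the first C2 domain (C2A) that weakens calcium binding, and Syt12 and Syt13 lack most of the binding residues.

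The coding sequence of the third C2A loop shows a part of this division within the group. For 9 genes the 33 bases that align with this loop of Syt1 are given in the sense of the transcript, with the positions on GRCm38 and the exon number from GENCODE M21. Capitals mark the aspartate codons at the 3 aligned binding positions.
Syt1, chr10:108627343-108627375, minus strand, exon 9: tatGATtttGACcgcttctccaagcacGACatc
Syt3, chr7:44393445-44393477, plus strand, exon 5: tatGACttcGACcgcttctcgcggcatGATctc
Syt5, chr7:4542281-4542313, minus strand, exon 5: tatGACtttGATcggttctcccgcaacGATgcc
Syt7, chr19:10442875-10442907, plus strand, exon 7: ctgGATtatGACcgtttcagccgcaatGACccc
Doc2a, chr7:126850944-126850976, plus strand, exon 6: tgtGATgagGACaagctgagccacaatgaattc
Doc2b, chr11:75780123-75780155, minus strand, exon 5: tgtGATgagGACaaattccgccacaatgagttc
Syt11, chr3:88761816-88761848, minus strand, exon 3: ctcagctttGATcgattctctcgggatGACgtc
Syt12, chr19:4453852-4453884, minus strand, exon 5: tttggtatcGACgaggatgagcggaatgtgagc
Syt13, chr2:92946099-92946131, plus strand, exon 4: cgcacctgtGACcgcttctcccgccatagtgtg

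Syt1, Syt3, Syt5 and Syt7 had an aspartate codon at all 3 positions, Doc2a, Doc2b and Syt11 at 2, and Syt12 and Syt13 at 1. Syt4, whose loop is not printed, had 2. The count thus sets Syt12 and Syt13 apart, but not Doc2a and Doc2b from Syt4 and Syt11. In Doc2a and Doc2b the position without aspartate is the last and holds a glutamate codon (gaa and gag). In Syt11 it is the first and holds a serine codon (agc). Over the 10 aligned positions of both C2 domains, Syt1 and Syt7 held 5 aspartates in C2A and 5 in C2B. Doc2a and Doc2b each held 4 and 5, Syt3 and Syt5 each 5 and 4, and Syt4 and Syt11 each 4 and 3. Syt12 held 1 and 2, and Syt13 3 and 1. The genes are set below roughly from the full set of these aspartates to few, with Syt3 and Syt5 before Doc2a and Doc2b.

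In Control hippocampus Syt1 and Syt11 were the most abundant of the 10 transcripts, at 558 TPM ± 51.1 (SD) and 482 TPM ± 13.3, where TPM is the read count of a gene normalized for its length and for the library. Syt13 (186 TPM), Syt5 (175 TPM), Syt7 (151 TPM) and Syt4 (150 TPM) formed a middle group. Doc2b (78.0 TPM), Syt3 (64.2 TPM), Doc2a (23.4 TPM) and Syt12 (17.8 TPM) followed. Neighbours in this order did not overlap over the 4 Control libraries, except Syt13 with Syt5, Syt7 with Syt4, and Doc2a with Syt12.

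The libraries held 34906134 to 52184353 reads assigned to genes, recovered from the TPM values, and the 10 genes took 282 to 85610 reads each per library. The lowest, Doc2a in S3, was 282 reads, with an exact 95% Poisson interval of 250.04 to 317 that covers counting error only. Xbp1, the induced gene, was at 786, 549, 1094 and 729 TPM in S1 to S4 and at 68.9 to 71.9 TPM in Control. Markers of excitatory neurons, summed, were at 4635 to 5314 TPM in XBP1s-TG and 5812 to 6608 TPM in Control. Of these, 2 of 7 were called lower, against 2.75% of all genes tested. They were Neurod6 and Emx1, the latter tested through Control libraries alone. Slc17a7, the vesicular glutamate transporter of these cells, was at 1680 TPM against 1535 TPM (log2 fold change 0.16, limma adjusted p = 0.016). Interneuron markers summed to 1325 to 1497 TPM in XBP1s-TG and 1145 to 1305 TPM in Control, with 0 of 6 tested called. Of 5 microglia markers tested, 0 were called, but 5 were lower at an adjusted p under 0.05, against 29.4% of all genes. Choroid plexus markers summed to 87.0 (S1) and 181 TPM (S3), against at least 4018 TPM in every other library, and their part in the results was not tested beyond leaving these libraries out. Hypothalamic markers summed to 280 TPM in S1, 26.0 TPM in S2, 37.9 TPM in S3 and 26.3 TPM in S4. Each sum was above the 7.24 to 14.3 TPM of Control. Those tested, Gal, Avp, Oxt and Pmch, were tested through XBP1s-TG libraries alone. Only Gal was called higher (limma adjusted p = 0.057 for Avp, 0.13 for Oxt and 0.45 for Pmch). Pmch was at 0.918, 0.877 and 1.92 TPM in S2 to S4, within the 0.765 to 4.32 TPM of Control. Leaving out S1 and S3 thus does not remove the difference in the sum, though not every marker follows it.

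Of the 10 genes, Syt3 and Syt4 were higher in XBP1s-TG hippocampus, and Doc2a and Doc2b lower, by at least 1.5-fold at an adjusted p under 0.05 (limma, Benjamini-Hochberg over the 9270 genes tested). By this rule 5.61% of all genes tested were called higher, 2.75% lower and 8.36% either way. All 10 genes passed the filter on low values, Doc2a through Control libraries alone. At the adjusted p alone 3 genes were higher and 6 lower, but that threshold was passed by 24.4% and 29.4% of all genes, 53.8% together. The median log2 fold change was -0.22 over the 10 genes and -0.04 over all genes tested.

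**Figure D1:**
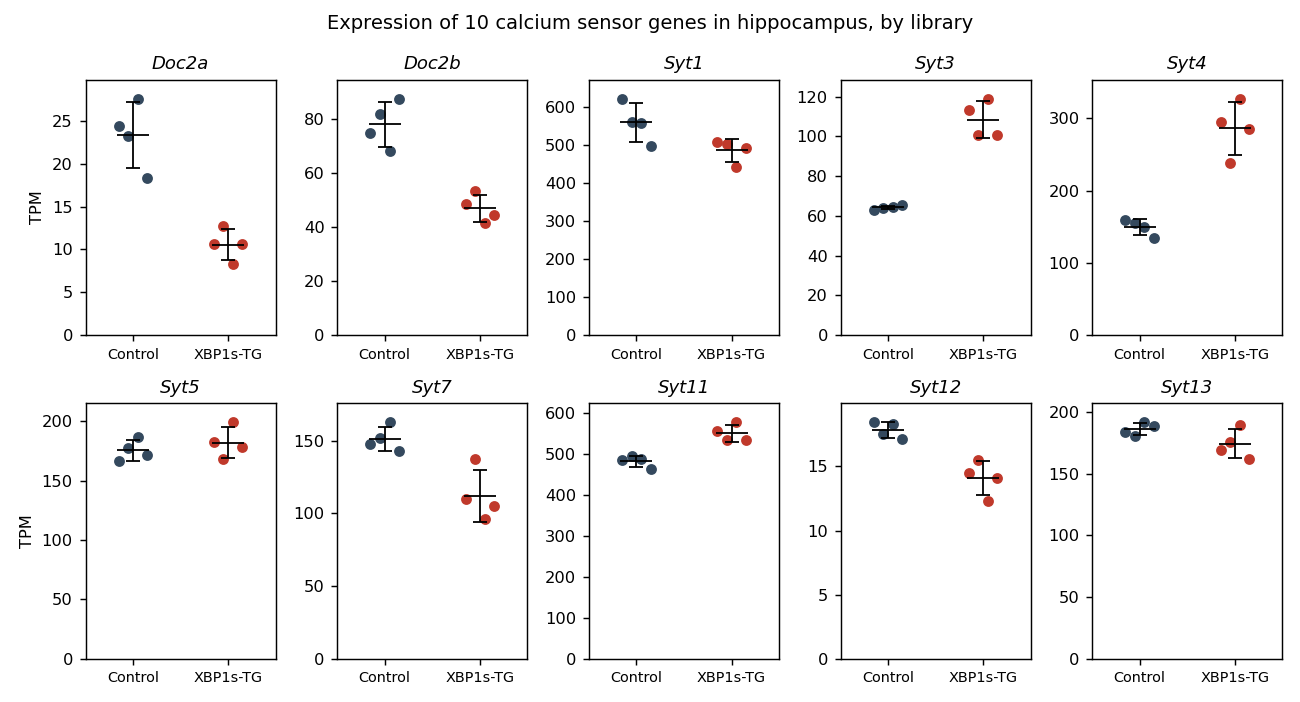
TPM of the 10 genes in each library (points; XBP1s-TG red, Control dark), with the mean and SD of each group as a bar with whiskers. The groups are apart in 7 genes, with XBP1s-TG above Control for Syt3, Syt4 and Syt11 and below it for Doc2a, Doc2b, Syt7 and Syt12, and overlap for Syt1, Syt5 and Syt13.

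TPM values of the groups did not overlap for 7 of the 10 genes, 3 higher and 4 lower, against 34.1% (higher), 13.2% (lower) and 47.3% (either) of all genes tested.

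Syt1, with the full set of aspartates, was at 506, 502, 441 and 490 TPM in S1 to S4 and at 621, 560, 557 and 495 TPM in S5 to S8. The lowest Control library lay within the XBP1s-TG range. The log2 fold change was -0.24 (SE 0.08, limma adjusted p = 0.028), under 1.5-fold. The limma adjusted p was 0.15 with S1 and S3 left out. With S3, S5, S6 or S7 alone left out it was 0.061, 0.072, 0.056 and 0.052, and it stayed under 0.05 without any other single library. An unequal-variance test per gene gave an adjusted p of 0.078.

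Syt7 was at 110, 137, 95.8 and 105 TPM in XBP1s-TG and at 147, 152, 162 and 143 TPM in Control. All 4 XBP1s-TG libraries lay below Control, S2 only just. The log2 fold change of -0.54 (SE 0.11, limma adjusted p = 0.0023) fell short of 1.5-fold, and its 95% interval ran from -0.78 to -0.30. Without S2 it was -0.66, past 1.5-fold.

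Syt3 was at 113, 101, 119 and 101 TPM in XBP1s-TG and at 63.1, 63.8, 64.7 and 65.3 TPM in Control. The Control libraries lay close together, with a coefficient of variation of 1.51%, and every XBP1s-TG library lay far above them. The log2 fold change was 0.62 (SE 0.05, limma adjusted p = 1.9e-05). It was 0.58 without S3 and 0.54 without S1 and S3, both just short of 1.5-fold, with adjusted p = 4.5e-05 and 0.00023.

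Syt5, the closest of the group to Syt1 in its C2 domains, did not pass the test. It was at 168 to 199 TPM in XBP1s-TG and 166 to 186 TPM in Control, and the log2 fold change of -0.04 had a 95% interval of -0.15 to 0.06 (limma adjusted p = 0.46).

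Doc2a had the largest change of the 10 genes in the fit as described, though not with values under 4 raised to 4 on the log2 scale (-0.70, against -0.83 for Doc2b and 0.82 for Syt4). It was at 10.6, 12.7, 8.26 and 10.7 TPM in XBP1s-TG and at 24.4, 23.3, 27.6 and 18.3 TPM in Control. Each XBP1s-TG library was below every Control library, and the ratio of the mean TPM was 0.451. The log2 fold change was -1.10 (SE 0.11, limma adjusted p = 6.2e-05), the 33rd most negative of the 9270. With 282 to 465 reads in XBP1s-TG and 627 to 1132 in Control it was also among the least deeply counted.

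The Doc2a gene (7:126847416-126852705, GRCm38, plus strand) overlaps Ino80e, a chromatin remodelling subunit on the other strand, over 1103 exon bases. Whether reads were counted by strand is not stated, so reads in the overlap may be assigned to either gene. Ino80e was at 13.5 to 15.9 TPM in XBP1s-TG and 11.8 to 13.2 TPM in Control, with a log2 fold change of 0.10 (limma adjusted p = 0.24). Its part in the Doc2a values was not tested.

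Doc2b (11:75768966-75796049, minus strand) was at 48.4, 53.1, 41.6 and 44.3 TPM in XBP1s-TG and at 74.9, 81.6, 68.2 and 87.4 TPM in Control. The groups were apart, and the ratio of the means was 0.600. The log2 fold change was -0.83 (SE 0.10, limma adjusted p = 0.00015). Doc2a and Doc2b thus fell together, although Doc2a was at only 0.209 to 0.404 of the TPM of Doc2b in Control.

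Both remained called in all fits with a library left out, between -1.17 and -1.01 for Doc2a and between -0.90 and -0.76 for Doc2b on the log2 scale. Markers of dentate granule cells moved the same way: 3 of 4 tested (Lct, Dsp and C1ql2) were called lower, against 2.75% of all genes, and Prox1 (-0.10) was not. Lct and Dsp were tested through Control libraries alone, and the fifth marker, Tdo2, under the filter, was at 6.95 TPM ± 1.77 (SD) in XBP1s-TG and 6.16 TPM ± 1.40 in Control. The sum of the markers was 71.1 to 128 TPM in XBP1s-TG and 121 to 159 TPM in Control. Of 7 CA pyramidal markers tested, 1 (Bok) was called lower and 0 higher. At the adjusted p alone 4 were lower and 1 (Grik4) higher, against 29.4% and 24.4% of all genes. The CA pyramidal sum was 470 to 510 TPM in XBP1s-TG and 501 to 572 TPM in Control. The part of either marker list in the Doc2 values was not tested.

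Syt4, a regulator of dense core vesicle release, had the largest rise of the 10 genes. It was at 295, 238, 327 and 285 TPM in XBP1s-TG and at 159, 155, 149 and 135 TPM in Control. The lowest XBP1s-TG library lay well above the highest Control library. The mean rose 1.91-fold in TPM, and the log2 fold change was 0.82 (SE 0.07, limma adjusted p = 2.9e-05).

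Syt11, the relative of Syt4 with the same count of aspartates, was at 556, 534, 576 and 533 TPM in XBP1s-TG and at 484, 494, 488 and 463 TPM in Control. All XBP1s-TG libraries were higher, but by a ratio of means of only 1.14. The log2 fold change was 0.14 (SE 0.03, limma adjusted p = 0.0055), and the adjusted p was 0.18 when libraries were centred on their medians in place of quantile normalization.

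Syt12 and Syt13, with few aspartates, were both lower at the adjusted p but under 1.5-fold. Syt12 was at 12.3 to 15.5 TPM in XBP1s-TG and 17.1 to 18.4 TPM in Control, with no overlap and a log2 fold change of -0.38 (SE 0.07, limma adjusted p = 0.0011). Syt13 was at 162 to 190 TPM and 181 to 192 TPM, with overlap and a log2 fold change of -0.19 (SE 0.05, limma adjusted p = 0.0060). Without normalization beyond TPM the adjusted p of Syt13 was 0.15.

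**Figure D2:**
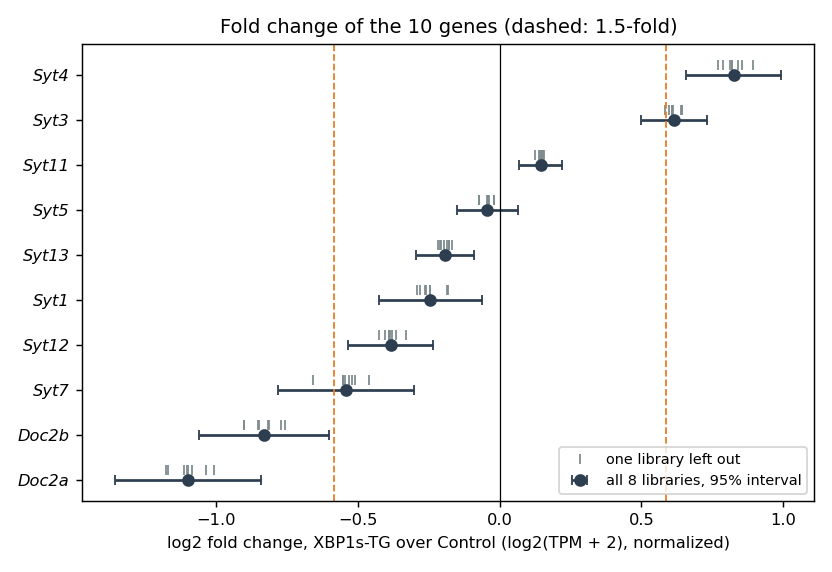
Log2 fold change of each gene (XBP1s-TG over Control, on log2(TPM + 2) after quantile normalization) with its 95% interval, and as grey ticks the values with 1 library left out. Dashed lines mark 1.5-fold. Doc2a (-1.10), Doc2b (-0.83) and Syt4 (0.82) stay past the line in every tick, 1 tick of Syt3 lies at 0.58, just short of it, and 1 tick of Syt7 lies past it at -0.66.

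The 10 genes together held 1922 to 2011 TPM in XBP1s-TG and 1785 to 1942 TPM in Control. The means of 1969 ± 45.7 and 1886 ± 69.6 TPM (SD) did not differ past the threshold (exact two-sided permutation test, p = 0.086). Within this sum the make-up differed. Syt4 held 14.5% ± 1.66 (SD) in XBP1s-TG and 7.92% ± 0.300 in Control, the largest gain, and Syt1 24.6% ± 1.83 and 29.6% ± 1.75, the largest loss.

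Syt3 went from 3.41% to 5.50%, Syt11 from 25.6% to 27.9%, Syt7 from 8.01% to 5.70% and Doc2b from 4.15% to 2.38%. In all, 3 shares were higher and 6 lower at p = 0.029, the smallest the exact permutation test of 4 against 4 allows (0.032 adjusted over the 10 shares), and Syt5 was at 9.23% and 9.31% (exact p = 0.89). Shares of a sum are not independent, since a gain of one gene lowers the others. The share of Syt13 was past the threshold only with all 8 libraries or without S2 or S3, that of Syt7 not without any 1 of the Control libraries, and that of Syt1 not without S3.

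The order of levels within a library does not depend on scaling between libraries. Of the 45 pairs of genes, 37 had the same order in all 8 libraries and 5 had one order in every Control library and the opposite in every XBP1s-TG library. Syt11 was below Syt1 in Control, at 0.779 to 0.934 of its TPM, and above it in XBP1s-TG, at 1.06 to 1.31. Syt4 passed both Syt5 and Syt13, with a ratio to Syt13 of 0.714 to 0.863 in Control and 1.35 to 1.76 in XBP1s-TG. Syt3 was at 0.747 to 0.949 of Doc2b in Control and 1.89 to 2.86 in XBP1s-TG. Syt12 was at 0.663 to 0.934 of Doc2a in Control and 1.22 to 1.48 in XBP1s-TG, so Doc2a was the least abundant of the 10 in every XBP1s-TG library. These pairs were found in the data, and their ratios are a description with no test.

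**Figure D3:**
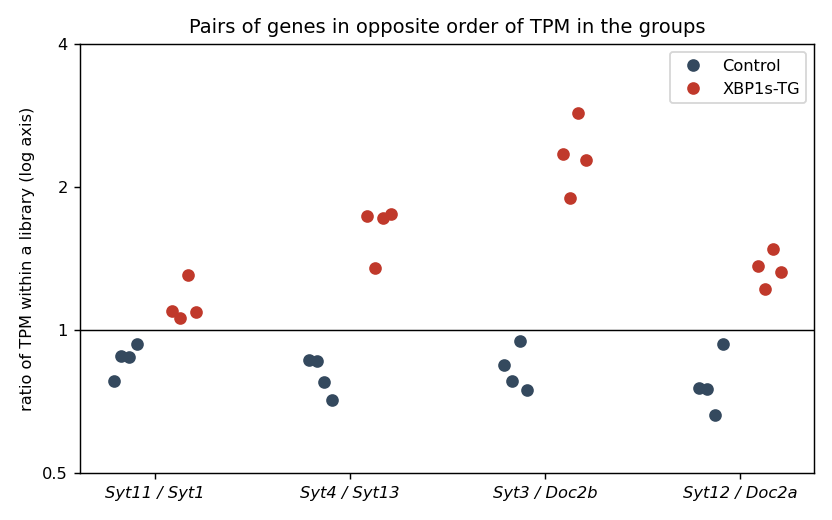
Ratio of TPM of 2 genes within each library (log axis) for 4 of the 5 pairs with opposite order in the groups, in Control (dark) and XBP1s-TG (red). Every Control point is below 1 and every XBP1s-TG point above it, from 1.06 for Syt11 over Syt1 in S2 to 2.86 for Syt3 over Doc2b in S3.

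The 4 XBP1s-TG libraries also differed among themselves. S3 had the most Xbp1 (1094 TPM) and lay farthest from the Control mean in 8 of the 10 genes on the normalized log2 scale, the called 4 among them. S2 had the least Xbp1 (549 TPM) and was nearest to Control in 6 genes, among them Doc2a, Doc2b, Syt4 and Syt7. Doc2a differed from the Control mean by -1.36 in S3 and -0.87 in S2, and Syt4 by 0.98 and 0.62. Syt7 had the widest spread, -0.79 in S3 and -0.19 in S2. The same counts were not made over all genes tested, so these cannot be read as particular to the 10 genes. With 4 libraries no correlation is given. S3 is also 1 of the 2 libraries with few choroid plexus transcripts, and the summed dentate granule markers were lowest in S3 (71.1 TPM) and highest in S2 (128 TPM) among the 4. The part of either in this order was not tested.

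**Figure D4:**
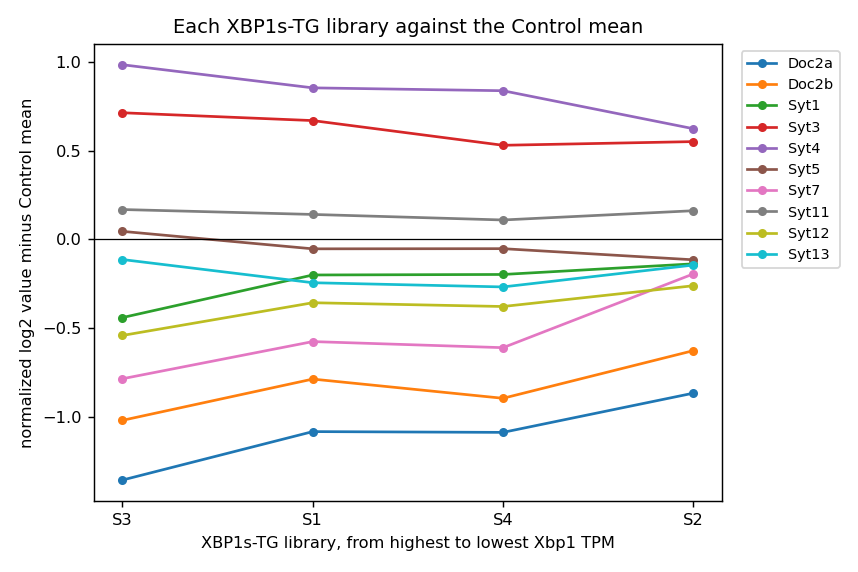
Difference of each XBP1s-TG library from the Control mean (normalized log2 scale) for the 10 genes, with libraries ordered from the highest to the lowest Xbp1 TPM (S3, S1, S4, S2). Syt4 runs from 0.98 in S3 to 0.62 in S2, and Doc2a from -1.36 to -0.87.

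For each called gene, the 3 tested genes with the most similar pattern were found by Pearson r of the normalized log2 values over the 8 libraries, which the group difference itself raises. For Doc2a these were Mgst3, Dusp8 and Ipcef1 (r = 0.998, 0.997 and 0.995), and for Doc2b Nol4l, Nr3c2, which encodes the mineralocorticoid receptor, and Jph4 (0.996, 0.995 and 0.994). For Syt3 they were Cope, a subunit of the COPI coat, Gmppa and Smyd5 (0.998, 0.998 and 0.996). For Syt4 they were Sdf4, Sel1l, a component of ER-associated degradation, and Map2k3os (0.998 each).

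Among 20 other genes of the synaptotagmin and Doc2 family, 7 could be tested and 1 was called, against 8.36% of all genes. Syt16, a synaptotagmin without the calcium-binding residues, was at 45.2 to 54.2 TPM in XBP1s-TG and 65.6 to 76.5 TPM in Control (log2 fold change -0.62, SE 0.06, limma adjusted p = 4.3e-05), a call lost without normalization beyond TPM. The median of the 7 was -0.30. Of the 13 under the filter, Sytl1, a Rab27 effector, was at 7.89, 7.68, 11.0 and 6.83 TPM in XBP1s-TG and at 1.01, 0.958, 0.963 and 0.228 TPM in Control. It held 191 to 338 reads in XBP1s-TG and 7 to 42 in Control, and the ratio of the means was 10.6 (p = 0.029 by exact permutation, the lowest value possible). Rph3al, another Rab effector, was lower at the same exact p, at 1.62 to 1.84 against 2.19 to 2.53 TPM. Neither was adjusted for the 13 genes, and both were singled out after their values were seen.

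In 4 further lists of the release machinery 4 of 58 genes were called (6.90%), near the 8.36% of all genes. None of 15 synaptic vesicle proteins and none of 10 presynaptic calcium channel subunits was called by limma, and 9 and 6 of them had an unadjusted p under 0.05, a threshold passed by 59.8% of all genes. Their median log2 fold changes were -0.01 and -0.15. Of 19 genes of the fusion machinery, Stx1a, the syntaxin of the neuronal SNARE complex, was lower at 82.5 to 88.6 TPM against 106 to 146 TPM (log2 fold change -0.66, limma adjusted p = 0.00015), as was Stxbp6 (-0.70), and none was called higher. The call of Stx1a was lost without normalization beyond TPM and that of Stxbp6 without S1 and S3. Of 14 other C2-domain proteins, Cpne8, a copine, was lower (-0.65) and Baiap3, a Munc13 relative, higher (0.86, at 7.41 to 23.5 TPM against 3.95 to 6.58 TPM). Baiap3 passed the filter on low values through S1 alone, the library with the most hypothalamic transcripts, whose part in the value was not tested. Neither Cpne8 nor Baiap3 was called without S1 and S3, and Cpne8 was also not called without normalization beyond TPM.

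Of 14 dense core vesicle genes, the compartment on which Syt4 is found, 3 were called higher, against 5.61% of all genes, and none lower, with a median of 0.12. At the adjusted p alone 5 of the 14 were higher and 2 lower, against 24.4% and 29.4% of all genes. The 2 lower were Pcsk2, a prohormone convertase (-0.44, limma adjusted p = 0.00092), and Bdnf (-0.27, limma adjusted p = 0.0050). Ptprn, a membrane protein of these vesicles, was at 874 to 1196 TPM in XBP1s-TG and 364 to 384 TPM in Control (log2 fold change 1.39, limma adjusted p = 3.6e-06). Hid1, required for their formation, was higher by 1.32 and Scg2, a granin, by 0.89. Of 19 EF-hand calcium sensors, which bind calcium by another fold, Hpcal4 (-0.77) and Hpca, hippocalcin (-0.70), were called lower and none higher, and 17 of the 19 were lower at an adjusted p under 0.05 against 29.4% of all genes. Their median was -0.29. The call of Hpca was lost without S1 and S3. Both lists were chosen with earlier results of these data known, so their counts beside all genes are a description and not a test.

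**Figure D5:**
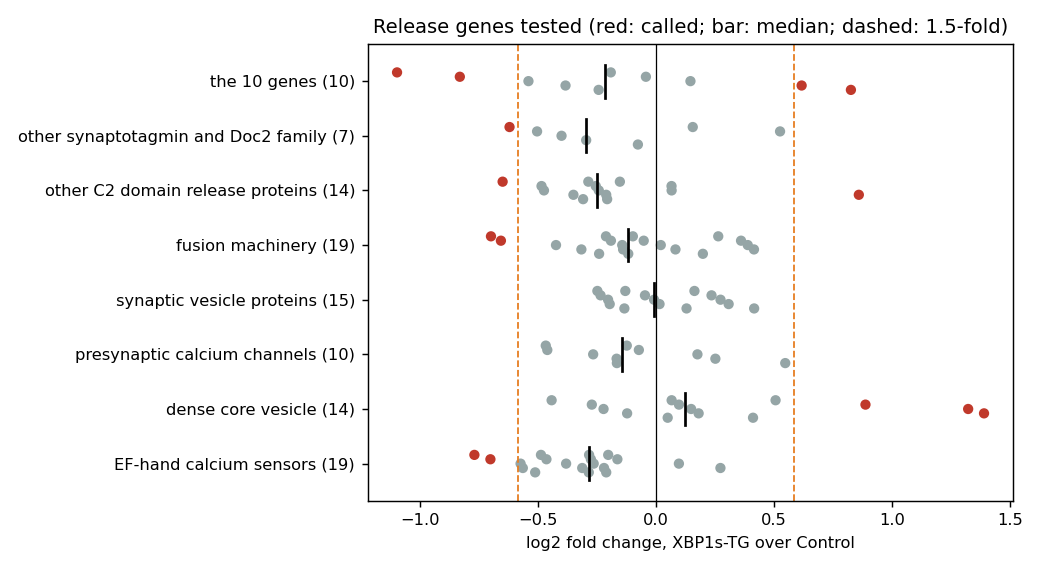
Log2 fold change of each tested gene (points, called ones in red) in the 10 genes and 7 further lists of release and calcium sensor genes, with the number tested in brackets, the median as a black bar and 1.5-fold as dashed lines. Called genes lie on both sides for the 10 genes, only to the right for dense core vesicles and only to the left for EF-hand sensors.

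Promoter windows in RefSeq (GRCm38.p6, 250 bases before to 50 after a start) were matched for 3 of the 10 genes, Syt1, Syt3 and Syt11, with 4 windows in all. The ER stress motifs TGACGTGG, ERSE (CCAAT, then CCACG after 9 bases) and ERSE-II (ATTGG, then CCACG after 1 base), the CRE motif TGACGTCA and the core ACGTG, which lies within TGACGTGG, were searched on both strands. None of the 4 windows held any of them, which says only that these letters are not there. Of all 32851 windows, 0.676% held TGACGTGG, 0.119% ERSE, 0.0365% ERSE-II, 1.79% TGACGTCA and 19.6% ACGTG. The 250 bases before the start of Syt3, the called gene among the 3, are shown in the sense of the gene (chr7:44383876-44384125, plus strand).
Syt3: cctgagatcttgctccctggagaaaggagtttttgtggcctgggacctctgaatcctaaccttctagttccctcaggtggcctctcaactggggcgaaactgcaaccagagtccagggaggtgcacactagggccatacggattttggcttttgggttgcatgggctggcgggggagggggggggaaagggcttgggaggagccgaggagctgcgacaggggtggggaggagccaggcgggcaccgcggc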

How the data were processed

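Per the labels and the study's methods, hippocampal RNA (500 ng) of XBP1s-TG and Control mice was made into 4 libraries per group with the KAPA Stranded mRNA-Seq Kit. Reads were checked with FastQC, trimmed with Trimmomatic, mapped to GRCm38 in CLCbio Genomics Workbench and counted per gene of annotation 83. The authors deposited TPM values per gene and library. Deposited group means and unadjusted p-values were not used. Versions of these tools and the strand setting of the counting are not given in the sources used here.

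From the TPM values, log2(TPM + 2) was taken, genes at 0 throughout were dropped and libraries were quantile normalized. The 9270 genes that exceeded 4 on this normalized scale in any library were fitted with limma 3.58.1 (R 4.3.3, eBayes with trend). Before normalization 4 equals 14 TPM, so the limit is only near 14 TPM in a given library. A call required 1.5-fold and an adjusted p (Benjamini-Hochberg) under 0.05, following the study's thresholds, with limma in place of its test per gene. Simulated data of 4 against 4 had 9039 genes tested. Changed genes were drawn from those above 5 on the log2 scale, which leaves out levels as low as Doc2a and Syt12. Recovery was judged by the adjusted p and the direction, without the fold threshold. It was reached by 61 of 67 genes changed 1.5-fold, 67 of 67 changed 2-fold and 66 of 66 changed 3-fold. Those changed 1.5-fold had a median absolute log2 fold change of 0.586, close to the threshold of 0.585, so fewer would be called. By the full rule there were 0 false calls. Shares and genes under the filter were compared by exact two-sided permutation tests. Whole reads were recovered from ratios of TPM values for 26055 of 26055 genes above 0 in at least 2 libraries (tolerance 0.001), and voom on these reads was an alternative. Other alternatives were pseudocounts, filters, normalizations, variance settings and left-out libraries.

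Aligned coding sequences came from GENCODE M21 (Biopython 1.88) and promoters from RefSeq. The members and lists were chosen with earlier results of these data known. Genes named are the 10 members, Xbp1, called genes of the other lists (at most 4 each by adjusted p) and the 3 most similar genes of each called member. Ino80e, Sytl1, Rph3al, Esyt1, Cacna1b, Vgf, Pcsk2, Bdnf and the marker genes were named after their values were seen. The paper describes 4 independent samples per group and biological replicates, while the labels do not say whether a library is 1 mouse. The p-values measure the spread between these libraries.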

Additional observations from a re-analysis of the deposited data

How the results depend on the processing

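No paired analysis was possible because the columns of the table carry no replicate numbers. Doc2a, Doc2b and Syt4 kept their call under every alternative that tested them, at log2 fold changes of -1.25 to -0.70, -0.90 to -0.71 and 0.73 to 0.92. Doc2a and Syt12 were not tested under the stricter filter of 5, which left 1 member called lower. With 1 library left out, 1 to 2 members were called higher and 2 to 3 lower, Syt3 was at 0.58 to 0.64 and Syt7 at -0.66 to -0.46. Without S1 and S3, 1 member was called higher, with Syt3 at 0.54. Without normalization beyond TPM, Syt5 was at 0.050 (adjusted p = 0.51). The adjusted p of Syt1, Syt11 and Syt13, all short of 1.5-fold, reached 0.15, 0.18 and 0.15 across alternatives.

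Over all genes, 520 were called higher and 255 lower (67.1% higher). Without normalization beyond TPM these were 705 and 151 (82.4% higher), with the median of all genes at 0.07 in place of -0.04, and without S1 and S3 430 and 152. In the other lists, leaving out the normalization gave 1 family gene called higher (Esyt1) and 0 lower, 0 other C2-domain proteins and 1 fusion gene lower, 1 calcium channel higher (Cacna1b) and 4 dense core vesicle genes higher (Vgf besides the 3), so that Syt16, Cpne8 and Stx1a were not called. Esyt1 passed the filter through S3 alone. Leaving out S1 and S3 gave 0 other C2-domain proteins higher and 0 lower, and 1 fusion gene and 1 EF-hand gene lower.

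For the shares, 2 libraries against 4 cannot give a p under 0.067. Without S1 and S3 the differences in percentage points were -0.63 for Doc2a, -1.63 for Doc2b, -3.85 for Syt1, 1.81 for Syt3, 5.62 for Syt4, -1.74 for Syt7, 2.08 for Syt11, -0.18 for Syt12 and -1.14 for Syt13, all in the direction seen with 8 libraries. With 1 library left out they were -5.51 to -4.00 for Syt1, -0.32 to 0.11 for Syt5, -2.77 to -2.0 for Syt7 and -1.24 to -0.81 for Syt13. Against the sum of all family genes, Syt5 was at 0.17 and Syt13 at -0.63 (exact permutation p = 0.66 and 0.11).

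Depth did not limit the abundant genes, but with 282 reads at the least Doc2a carries more counting error than the others.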
